A study of Rattus norvegicus with 4 samples.

Results

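The RNA of embryonic rat cortical cells on the hydrogel NL-SFMA was compared with that of the same kind of cells on N-SFMA, to describe what accompanies L where N is already present. The comparison took the 11944 of 18755 listed genes with 1 FPKM or more in either library (FPKM is a read count scaled for gene model length and for the summed reads of the library), and used 2 of the 4 libraries of the series. The series concerns hydrogels that carry a cell-cell adhesion cue and their use for neural growth. Cerebral cortex of Sprague Dawley rats at embryonic day 16 gave the primary cells, which were seeded at 100000 per well and kept for 24 h at 37 °C and 5% CO2 in Neurobasal medium with 2% B27, per the labels. The 4 groups differ by label in the hydrogel alone, N-SFMA and NL-SFMA being compared here, with L-SFMA and plain SFMA as the other libraries. The treatment labels write L@SFMA and NL@SFMA for the hydrogels with an L. The meaning of N and L is not stated in the labels, which also do not say whether the 5 parallel wells of a hydrogel were pooled. There was 1 library per hydrogel, so no difference below could be set against a spread between replicates, and none has a p-value.

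Many neurons of the cortex at this age are newly formed and are extending axons and dendrites. They bind one another through cadherins and adhesion molecules of the immunoglobulin superfamily, which couple cell contacts to the cytoskeleton. Their mitochondria combine a few subunits made from mitochondrial DNA with many that are made from nuclear genes and imported as proteins, so the respiratory chain draws on both genomes.

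The summed count was 15429180 in N-SFMA and 14172205 in NL-SFMA. Reads were counted for 16691 and 16399 genes in these libraries. At this depth a count of 3, taken as the floor for a gene with no read, is 0.194 CPM (the count scaled to the library's summed count) in N-SFMA and 0.212 CPM in NL-SFMA. Both libraries reached 1 FPKM for 11166 genes, NL-SFMA alone for 378 and N-SFMA alone for 400. The first gene outside this limit was Rig1, with 41 reads in N-SFMA and 79 in NL-SFMA. Reads in one library alone were few per gene, at most 35 for the 829 genes read only in NL-SFMA and at most 30 for the 1121 genes read only in N-SFMA. Markers of cortical neurons were abundant in both libraries, with the neuronal transcription factor Neurod6 at 227 and 238 FPKM in N-SFMA and NL-SFMA and the deep layer factor Tbr1 at 111 and 118 FPKM.

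Long genes were higher and short genes lower in NL-SFMA than in N-SFMA. The median log2 difference, NL-SFMA minus N-SFMA on the scale of log2(FPKM + 1), was -0.48 for the 793 genes with a model under 1 kb and -0.41 for the 2400 genes of 1 to 2 kb. It was -0.11 for 5027 genes of 2 to 4 kb, 0.22 for 3083 genes of 4 to 8 kb and 0.49 for the 641 genes of 8 kb or more. Across genes the difference had a Pearson r of 0.40 with log2 length, given as a description since genes of one library share its depth and preparation. The read-weighted median length moved with it, from 3278 bases in N-SFMA to 3626 in NL-SFMA, against 2851 in SFMA and 3438 in L-SFMA. What sets this trend was not tested. A smooth curve over log2 length (lowess), which ran from -0.51 to 0.88, was therefore subtracted from each gene's difference, after which r was -0.03. Values below are these trend-removed log2 differences unless stated, so a value of 1 is a 2-fold difference relative to genes of like length, and the pseudocount of 1 FPKM understates differences of low genes. A signed number in parentheses after FPKM values, or after a gene name, is this difference.

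**Figure D1:**
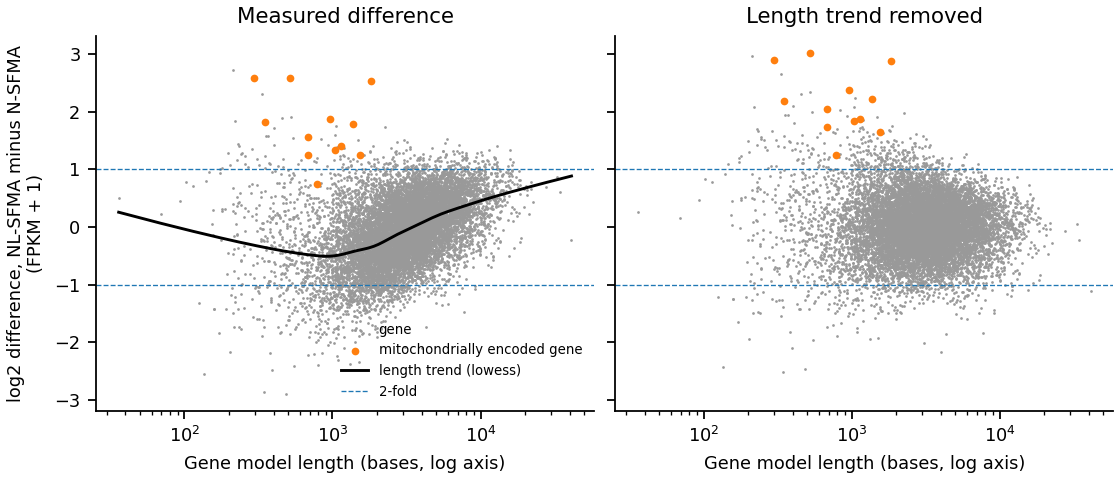
The log2 difference of FPKM + 1, NL-SFMA minus N-SFMA, against the length of the gene model on a log axis, before (left) and after (right) removal of the length trend. Each grey point is 1 of 11944 genes, the black line is the trend, orange points are mitochondrially encoded genes and dashed lines mark 2-fold; the cloud tilts upward with length on the left, and the 12 mitochondrially encoded genes lie above the 2-fold line on the right.

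With the trend removed, 351 genes were at least 2-fold higher in NL-SFMA, 2.94% of those tested, and 284 were at least 2-fold lower, 2.38%. Without removal the counts were 267 higher (2.24%) and 692 lower (5.79%). Genes called under both were 160 higher and 234 lower. The looser limit of 1.5-fold, used below to count the members of a list, took in 1419 genes higher (11.9%) and 1405 lower (11.8%) with the trend removed. The 5th and 95th percentiles of the trend-removed difference were -0.82 and 0.84. The calls were uneven over length. Genes under 1 kb were 2-fold higher in 11.3% of cases and 2-fold lower in 9.08%, while of the genes of 8 kb or more 0% were 2-fold higher and 1.72% lower. The 1.5-fold shares of all genes, set beside list counts below, are not matched for length. They may therefore be too low for lists of short genes.

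Transcripts of mitochondrial DNA were higher in NL-SFMA than in N-SFMA, 12 of 12 tested past 2-fold, with a median of 2.11, or 1.68 before removal of the trend. They held 2.23% of the reads in N-SFMA (exact 95% binomial interval 2.22 to 2.23) and 5.89% in NL-SFMA (5.87 to 5.90), against 2.68% in SFMA and 2.33% in L-SFMA. This interval and those of single genes below cover counting error only, and not variation between cultures. Reads copied by PCR are not independent molecules, so the intervals may be too narrow even for counting error. Subunits of complex I, which passes electrons from NADH to ubiquinone, had the widest differences. Mt-nd5 stood at 400.2 FPKM in N-SFMA and 2314 in NL-SFMA, beside 291 in SFMA and 457 in L-SFMA. Its CPM was 5.78-fold higher in NL-SFMA than in N-SFMA (exact 95% counting interval 5.67 to 5.90), and its trend-removed difference was 2.88. Mt-nd1 stood at 1151, 4217, 1352 and 1350 FPKM in the same order of libraries, with a difference of 2.38. For both genes NL-SFMA lay above each of the other libraries, which ran from 291 to 457 FPKM for Mt-nd5 and from 1151 to 1352 FPKM for Mt-nd1. Mt-nd6 (3.02) and Mt-nd4l (2.90) differed most, but Mt-nd6 lies beside Mt-nd5 on the other strand and Mt-nd4l overlaps Mt-nd4, so their counts may hold reads of the neighbour, and the strand setting of the counting is not known.

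The remaining complexes showed the same direction, mostly with smaller values. Mt-co1, the catalytic subunit of cytochrome c oxidase (complex IV), was at 5554 FPKM in N-SFMA and 13230 in NL-SFMA, a difference of 1.65. Mt-co2, which accepts electrons from cytochrome c, went from 2632 to 7776 FPKM (2.04), and Mt-co3 from 3933 to 6592 FPKM (1.24). Cytochrome b of complex III, Mt-cyb, was at 2054 and 5405 FPKM (1.88), and the ATP synthase subunit Mt-atp6 at 2346 and 5587 FPKM (1.73). Mt-co3 had the narrowest difference of the 12 genes, and Mt-nd2 (1.84) the narrowest among the complex I subunits. Mt-atp8 had no read in either library and was not tested.

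**Figure D2:**
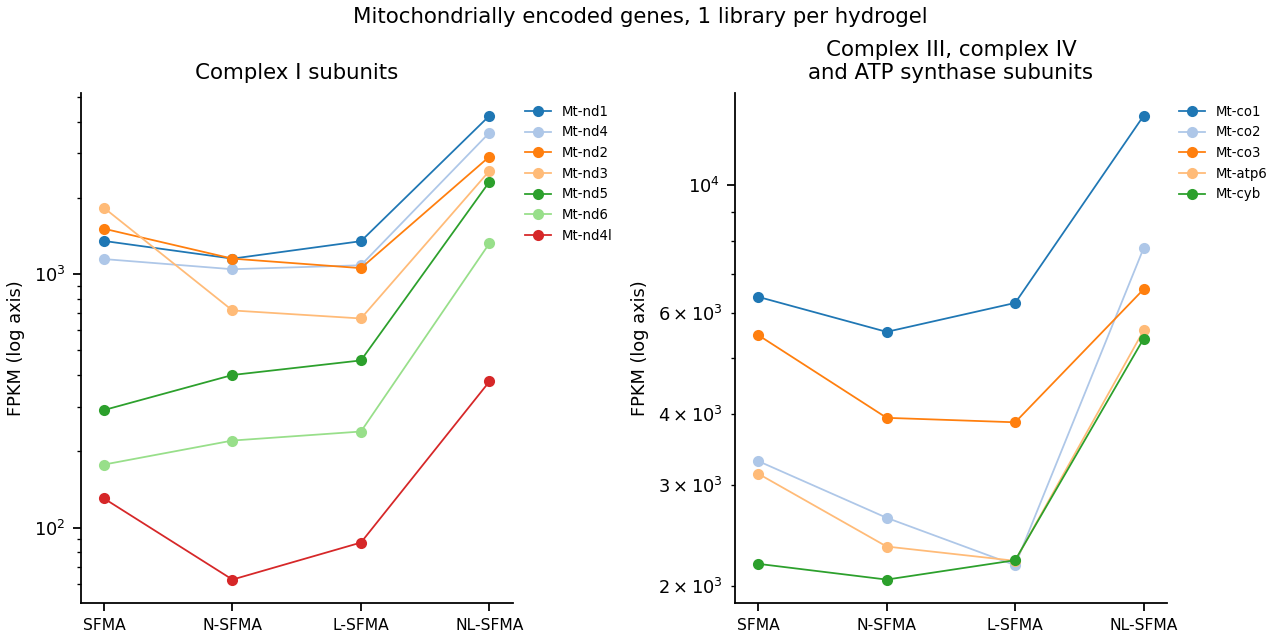
FPKM on a log axis of the 12 tested mitochondrially encoded genes in the 4 libraries, 1 library per hydrogel, with lines joining the values of a gene; complex I subunits are on the left, those of complexes III and IV and ATP synthase on the right. NL-SFMA holds the highest value of each gene, such as 2314 FPKM against 400.2 in N-SFMA for Mt-nd5.

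Nuclear genes for the same respiratory chain went the other way. Of 70 tested members of the oxidative phosphorylation list, 24 were at least 1.5-fold lower in NL-SFMA and 2 higher, beside the 11.8% and 11.9% of all genes, and the median was -0.43. The summed level of the 72 found genes was 8154 FPKM in N-SFMA and 4880 in NL-SFMA. These genes are short, with a median model of 1320 bases, and before removal of the trend the median was -0.80. Past 2-fold, 9 of the 70 were lower and 2 higher. Of all tested genes under 1 kb, 9.08% were 2-fold lower and 11.3% higher, and of those of 1 to 2 kb 2.79% and 6.21%. By complex, the median was -0.42 for the 34 nuclear subunits of complex I, -0.22 for the 4 of complex II, -0.32 for 8 of complex III, -0.63 for 9 of complex IV and -0.52 for 14 of ATP synthase. Ndufb6, an accessory subunit of complex I, was at 33.7 FPKM in N-SFMA and 8.87 in NL-SFMA, 3.80-fold lower by CPM (3.00 to 4.85). Atp5f1e, the epsilon subunit of ATP synthase, was at 433 and 161 FPKM (-1.26), and Ndufa13, also of complex I, at 86.3 and 25.6 FPKM (-1.22). Within complex IV the nuclear subunits differed in both directions. Cox6b1 was at 271 FPKM in N-SFMA and 87.5 in NL-SFMA (-1.19) and Cox4i1 at 148 and 55.6 FPKM (-1.14). Cox7b, singled out after its values were seen, was at 22.5 and 34.0 FPKM (1.03). The other nuclear member past 2-fold higher, Ndufa1 (1.33), rested on 21 reads in N-SFMA and 51 in NL-SFMA.

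An assembly factor and some genes of the machinery that makes or imports mitochondrial proteins held some of the lowest values of the comparison. Uqcc2, an assembly factor of complex III, had the largest lower difference among named genes. It stood at 72.0 FPKM in N-SFMA and 9.05 in NL-SFMA, beside 108 in SFMA and 47.6 in L-SFMA, which was 7.95-fold lower by CPM in NL-SFMA than in N-SFMA (5.81 to 11.1), a trend-removed difference of -2.51. The small chaperone Timm13, which escorts proteins across the space between the mitochondrial membranes, stood at 142, 25.9, 219 and 130 FPKM in the same order (-1.97). Its relative Timm10 was at 22.7, 4.16, 31.9 and 22.6 FPKM (-1.70), and Tomm7, a small subunit of the outer membrane translocase, at 16.2, 2.30, 41.4 and 14.3 FPKM (-1.94). For these 4 genes NL-SFMA lay below each of the other libraries, and N-SFMA and L-SFMA lay near each other except for Uqcc2. Of 23 tested Timm and Tomm genes, a family grouped after values were seen, 6 were at least 1.5-fold lower and 0 higher, with a median of -0.30. Mitochondrial ribosomal protein genes, grouped in the same way, had a median of -0.27 over 72 members, 18 lower and 3 higher, among them Mrps26 (-1.82) and Mrpl54 (-1.42).

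The promoters of 3 import genes with the largest lower differences and of 2 receptor genes with large higher differences are shown, all chosen after values were seen. Each is the 250 bases before the start of the gene in RefSeq's table for rat build GRCr8, 5′ to 3′ on the gene's strand, and capitals mark matches on either strand to 7 searched motifs: the TATA box core TATAAA, the CCAAT box CCAAT, the GC box GGGCGG, the ETS core CCGGAAG, the NRF1 palindrome, the cyclic AMP response element TGACGTCA and the E-box CACGTG. The import genes Timm13 (chr7:9459496-9459745, plus strand), which holds no match, Timm10 (chr3:90314889-90315138, plus strand) and Tomm7 (chr4:12197253-12197502, plus strand) were lower in NL-SFMA, and the GABA-A receptor genes Gabrb2 (chr10:27439543-27439792, plus strand) and Gabra3 (chrX:155543871-155544120, minus strand), described below, were higher.
Timm13: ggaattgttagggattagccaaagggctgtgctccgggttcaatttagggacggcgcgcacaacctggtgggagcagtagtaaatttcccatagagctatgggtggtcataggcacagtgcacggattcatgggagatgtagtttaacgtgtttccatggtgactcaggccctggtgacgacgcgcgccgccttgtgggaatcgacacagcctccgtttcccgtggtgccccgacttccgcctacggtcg
Timm10: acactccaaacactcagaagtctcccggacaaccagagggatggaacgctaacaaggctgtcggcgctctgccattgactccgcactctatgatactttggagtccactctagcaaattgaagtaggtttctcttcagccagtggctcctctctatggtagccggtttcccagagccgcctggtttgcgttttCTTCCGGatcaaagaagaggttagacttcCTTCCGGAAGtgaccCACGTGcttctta
Tomm7: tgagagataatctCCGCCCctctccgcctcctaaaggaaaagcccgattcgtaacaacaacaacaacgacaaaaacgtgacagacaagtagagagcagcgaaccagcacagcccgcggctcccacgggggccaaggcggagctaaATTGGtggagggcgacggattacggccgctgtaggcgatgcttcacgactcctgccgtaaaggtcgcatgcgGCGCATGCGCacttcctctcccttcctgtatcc
Gabrb2: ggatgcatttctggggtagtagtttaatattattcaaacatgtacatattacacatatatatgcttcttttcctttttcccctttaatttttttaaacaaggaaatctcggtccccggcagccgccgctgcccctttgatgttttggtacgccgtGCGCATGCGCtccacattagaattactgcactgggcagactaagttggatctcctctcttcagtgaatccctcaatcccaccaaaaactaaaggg
Gabra3: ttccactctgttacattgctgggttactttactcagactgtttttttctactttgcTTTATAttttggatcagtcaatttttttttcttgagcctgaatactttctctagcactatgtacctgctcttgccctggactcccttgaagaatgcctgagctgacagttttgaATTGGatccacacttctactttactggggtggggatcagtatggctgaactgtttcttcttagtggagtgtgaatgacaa
The run CTTCCGGAAG in Timm10 holds the ETS core on both strands. A promoter was matched by symbol for 8394 of the 11944 genes. The ETS core was found in 16.7% of these, in 18.4% of 190 promoters of the 2-fold lower genes, in 14.0% of 121 promoters of the 2-fold higher genes and in 38.1% of 21 Timm and Tomm promoters. The GC box was found in 61.6%, 54.2%, 58.7% and 47.6% of the same sets. The ETS share of the Timm and Tomm family, grouped after values were seen, rests on 8 promoters. Of the 3 import promoters shown, that of Timm10 alone holds the ETS core. It was also found in 28.6% of 63 promoters of nuclear oxidative phosphorylation genes and in 21.8% of 55 of ribosomal protein genes. A match describes letters in this window and not a bound site.

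Cytosolic ribosomal protein genes held 3.47% of the reads in N-SFMA (3.46 to 3.47) and 2.25% in NL-SFMA (2.24 to 2.26). With the trend removed their median was -0.29 over 70 members, with 23 at least 1.5-fold lower and 3 higher. Both ribosomal subunits had a median of -0.29. Rpl13 of the large subunit was at 323 FPKM in N-SFMA and 98.8 in NL-SFMA (-1.35), and Rps10 of the small subunit at 194 and 57.3 FPKM (-1.29). Ribosomal protein genes have many pseudogenes, whose handling in the counting is not known, so values of single members are uncertain.

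Tmsb10, a thymosin that binds actin monomers and is abundant in young neurons, was at 1179 FPKM in N-SFMA and 233 in NL-SFMA, beside 1543 in SFMA and 1024 in L-SFMA. By CPM it was 5.07-fold lower in NL-SFMA than in N-SFMA (4.91 to 5.22), from 27388 and 4966 reads, a difference of -1.93. Bola2, which takes part in handling iron-sulphur clusters, was at 65.9 and 11.7 FPKM in N-SFMA and NL-SFMA (-1.89). Edf1 (25.7 and 5.22 FPKM, -2.17), a transcriptional coactivator that also binds collided ribosomes, and Hypk (14.5 and 2.67 FPKM, -2.01), a partner of the N-terminal acetylation complex, have models over 3 kb and differed by -2.10 and -2.08 before removal of the trend. Within some small complexes, most subunits were lower. Prefoldin, the chaperone complex that hands unfolded actin and tubulin to the cytosolic chaperonin, had 4 of 5 tested subunits at least 1.5-fold lower, led by Pfdn2 (8.58 and 2.44 FPKM, -1.84). Its subunit Pfdn4 was at 28.6 and 27.3 FPKM (0.42). Of the Ragulator complex, which anchors mTORC1 signalling at the lysosome, 4 of 5 subunits were lower, led by Lamtor4 (28.4 and 5.23 FPKM, -1.75), while Lamtor3 was at 16.9 and 15.5 FPKM (0.05). Both complexes, like the histone, RNA polymerase and spliceosome core genes that follow, were grouped after values were seen.

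Histone genes had a median of -0.25 over 19 tested members, with 8 at least 1.5-fold lower and 1 higher. The variant H2aj was at 78.1 FPKM in N-SFMA and 16.3 in NL-SFMA (-1.82) and Hist3h2ba at 177 and 43.7 FPKM (-1.57). Hist1h2af (-2.09) rested on 64 and 6 reads and Hist1h2ac, the higher member, on 1 and 7, and histone copies are so alike that reads can be split between them. Subunits of the RNA polymerases had a median of -0.32, with 8 of 30 lower and 0 higher, among them Polr2e, shared by the nuclear polymerases, at 92.8 and 29.1 FPKM (-1.21). Small proteins of the spliceosome core (Lsm and Snrp genes) had a median of -0.19, with 13 of 27 above 0. By the 1.5-fold limit 8 were lower and 0 higher, with Lsm4 at 66.6 and 15.9 FPKM (-1.49). The wider list of splicing factors had a median of 0.03, with 3 of 43 higher and 7 lower. Muscleblind genes, regulators of splicing in maturing neurons, were among the higher ones, Mbnl1 at 0.75 and Mbnl2 at 0.73.

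**Figure D3:**
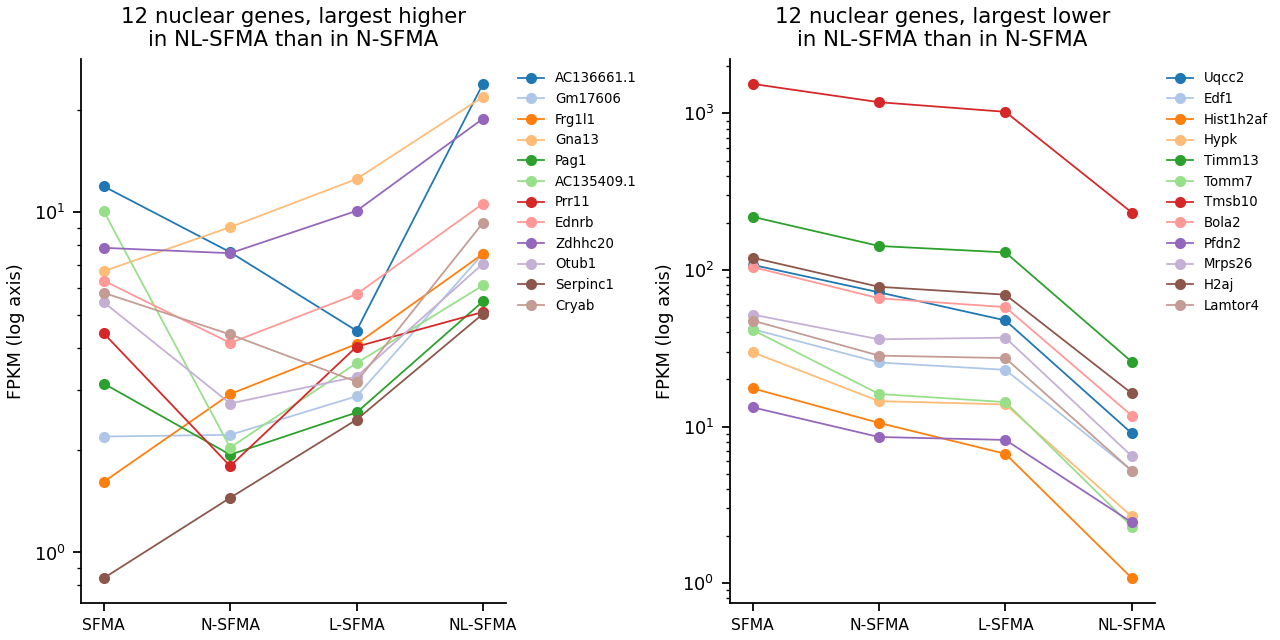
FPKM on a log axis in the 4 libraries, 1 per hydrogel, with lines joining the values of a gene. The left panel holds the 12 genes with the largest higher difference in NL-SFMA against N-SFMA, length trend removed. The right panel holds the 12 with the largest lower difference. All were taken as nuclear by symbol. The right panel shows NL-SFMA below the other libraries, as for Tmsb10 at 233 FPKM against 1179 in N-SFMA.

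Among genes without a mitochondrial symbol, taken as nuclear, those with the largest higher differences were mostly of modest level. They ran from 5.02 to 23.8 FPKM in NL-SFMA, 5 FPKM being the limit for naming. Gna13, a G protein alpha subunit, was at 9.03 FPKM in N-SFMA and 21.8 in NL-SFMA, beside 6.70 in SFMA and 12.5 in L-SFMA. It was 2.41-fold higher by CPM in NL-SFMA than in N-SFMA (2.03 to 2.88), with a trend-removed difference of 1.61. Zdhhc20, a palmitoyltransferase, was at 7.57, 18.8, 7.85 and 10.1 FPKM in the same order (1.47). Pag1, a membrane adaptor that recruits the inhibitory kinase Csk, was at 1.94, 5.46, 3.13 and 2.58 FPKM (1.55). Gna13 had its lowest level in SFMA, whereas Zdhhc20 and Pag1 had their lowest value in N-SFMA. Ednrb, the endothelin receptor of radial glia and astrocytes, was at 4.13, 10.6, 6.29 and 5.74 FPKM (1.49), the small heat shock protein gene Cryab at 4.37, 9.30, 5.79 and 3.17 FPKM (1.45), and Otub1, a deubiquitinase, at 2.74, 7.05, 5.43 and 3.29 FPKM (1.47). AC136661.1 (2.03), Gm17606 (1.67) and AC135409.1 (1.51), which the files list with no descriptive symbol, rested on 281, 25 and 22 reads in NL-SFMA.

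Receptors for the transmitter GABA of the ionotropic A type were the highest of the synaptic genes. GABA-A receptors are chloride channels built from several subunits, and in embryonic cortical neurons they often depolarise the cell. Gabra2, an alpha subunit, was at 12.2 FPKM in N-SFMA and 25.9 in NL-SFMA, beside 8.25 in SFMA and 14.1 in L-SFMA (1.29), 2.13-fold higher by CPM in NL-SFMA than in N-SFMA (1.89 to 2.41). Gabrb2, a beta subunit, was at 2.70, 7.98, 1.37 and 3.29 FPKM in the same order (1.39). Both had their lowest level in SFMA and their highest in NL-SFMA. Gabra3 did not, with 5.65, 12.1, 6.34 and 4.78 FPKM (1.33). Grouped as a family after these values were seen, 9 of 11 found subunit genes were tested, 6 were at least 1.5-fold higher, 5 of them 2-fold, and 0 lower, with a median of 1.09. The summed level of the 11 subunits was 66.6 FPKM in N-SFMA and 132 in NL-SFMA. Gabrg1 (1.63 and 1.26 FPKM, 0.14) and Gabra5 (4.00 and 5.54 FPKM, 0.55) were among those not past 1.5-fold.

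The synapse list as a whole was split, with a median of 0.13, 9 of 47 members at least 1.5-fold higher and 7 lower. Higher members besides the GABA receptors included the glutamate receptor subunit Grin2b (0.94), the synaptotagmin Syt4 (0.94) and the fusion protein Snap25 (0.80). Lower ones were proteins of the vesicle and its docking, Syp, the synaptophysin gene, at 112 and 42.7 FPKM in N-SFMA and NL-SFMA (-1.21), Stx1a (-1.13) and Rab3a (-0.84), with the postsynaptic scaffolds Dlg4 (-0.76) and Shank3 (-0.70). Snap25 and Stx1a encode partners in one fusion complex and differed in opposite directions.

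Voltage-gated channels had a median of 0.39, and 6 of 27 members were at least 1.5-fold higher and 0 lower. Cacna2d1, an auxiliary subunit of calcium channels, was at 7.07 FPKM in N-SFMA and 16.2 in NL-SFMA, beside 3.60 in SFMA and 9.61 in L-SFMA (1.04). The potassium channel genes Kcnd3 (5.43 and 12.9 FPKM in N-SFMA and NL-SFMA, 0.79), Kcnj3 (2.70 and 5.30 FPKM, 0.75), Kcnq3 (3.05 and 6.76 FPKM, 0.70) and Kcnq5 (1.29 and 2.60 FPKM, 0.63) were among the others. These levels are low, and the list has long models, with a median of 6672 bases.

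The cell-cell adhesion list, which bears on the cue named by the series, had a median of 0.21. Of its 45 tested members 6 were at least 1.5-fold higher, near the 11.9% of all genes. Only 1 was lower, beside 11.8% of all genes. Before removal of the trend the median was 0.47 and 14 members were higher, and the median model length was 5706 bases. Cdh2, the neural cadherin, was at 83.7 FPKM in N-SFMA and 154 in NL-SFMA, beside 63.2 in SFMA and 97.3 in L-SFMA. It was 1.84-fold higher by CPM in NL-SFMA than in N-SFMA (1.78 to 1.91), with a trend-removed difference of 0.75, below 2-fold. Its cytoplasmic partner Ctnnb1, beta-catenin, was at 259 and 322 FPKM (0.30). Past 2-fold were Cadm2, a synaptic adhesion molecule, at 9.72 and 20.8 FPKM (1.07), and Chl1, a relative of L1cam, at 14.9 and 37.2 FPKM (1.01). Cdh6 (0.91), Pcdh19 (0.62) and Alcam (0.61) were the other higher members. Cadm4, of the same family as Cadm2, was the lower one, at 286 FPKM in N-SFMA and 120 in NL-SFMA, beside 261 in SFMA and 305 in L-SFMA (-0.97). Cadm2 and Cadm4 thus differed in opposite directions within 1 family. L1cam (40.9 and 47.4 FPKM, -0.04) and Ncam1 (64.1 and 105 FPKM, 0.30) were not past 1.5-fold, and L1cam was 0.21 before removal of the trend.

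Genes of axon growth and guidance had a median of 0.10, with 5 of 50 higher and 6 lower by 1.5-fold, close to the shares of all genes. The secreted guidance cues Sema3c (57.6 and 113 FPKM in N-SFMA and NL-SFMA, 0.77) and Sema3a (4.03 and 8.70 FPKM, 0.72) were higher, as were the receptors Epha5 (0.66), Dcc (0.62) and Nrp1 (0.60). Of the 4 listed stathmins, which destabilise microtubules, Stmn3 (62.2 and 30.8 FPKM, -1.24) and Stmn1 (917 and 485 FPKM, -0.83) were lower past 1.5-fold. Stmn4 was at -0.54 and Stmn2 at 0.10, within that limit. Gap43, a growth cone protein, was at 86.7 and 79.7 FPKM, a difference of 0.29 with the trend removed and -0.12 without. Of the cytoskeletal genes, Dcx, doublecortin of migrating neurons, was at 140 and 266 FPKM (0.51), Map2 of dendrites at 56.5 and 98.0 FPKM (0.40), and the neuronal tubulin Tubb3 at 2602 and 1659 FPKM (-0.29). Tubulin genes of the same family diverged, with Tubb2b at 25.9 and 52.5 FPKM (1.41) and Tubb2a at -0.75, but their sequences are so alike that reads may be assigned to either. The list of microtubules and motors had a median of -0.13 with the trend removed and 0.18 without.

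Markers of excitatory cortical neurons had a median of 0.06, with 3 of 29 higher by 1.5-fold and 1 lower. The higher ones were the transcription factors Mef2c (19.3 and 37.3 FPKM, 0.95), Nfib (31.4 and 63.1 FPKM, 0.78) and Foxp1 (4.74 and 8.16 FPKM, 0.61). The lower one was Emx1, a factor of dorsal cortical progenitors, at 55.1 and 21.5 FPKM (-0.93). Markers of inhibitory interneurons had a median of -0.02, with 5 of 27 lower and 1 higher. Before removal of the trend the median was -0.35. Their summed level, also without removal, was 424 FPKM in N-SFMA and 260 in NL-SFMA. Among the lower ones the neuropeptide genes led, Sst at 110 and 34.5 FPKM (-1.16), Npy at 11.5 and 3.08 FPKM (-1.15) and Cck at 16.4 and 6.44 FPKM (-0.72). The homeobox gene Dlx5 followed at 18.3 and 7.77 FPKM (-0.71). The higher one was Calb1 at 1.78 and 2.61 FPKM (0.66). Other markers of the list, Gad1 (0.08), Gad2 (-0.43), Slc32a1 (-0.16) and Lhx6 (0.01), were not past 1.5-fold. In bulk RNA, fewer cells of a type and less RNA per cell cannot be told apart.

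Genes of intermediate progenitors and early neurogenesis had a median of -0.40, with 7 of 20 lower by 1.5-fold and 2 higher. Hes6, which promotes neuronal differentiation, was at 219 FPKM in N-SFMA and 79.0 in NL-SFMA, beside 308 in SFMA and 246 in L-SFMA (-1.04). Igfbpl1, a gene of newborn cortical neurons, was at 352, 137, 483 and 356 FPKM in the same order (-0.92). Gadd45g, an early gene of neuronal commitment that also answers to stress, was at 32.1, 6.71, 50.6 and 43.0 FPKM (-1.63), or 4.78-fold lower by CPM in NL-SFMA than in N-SFMA (3.90 to 5.90). These 3 genes had their lowest level in NL-SFMA. Elavl3, an RNA-binding protein of neurons, was higher, at 62.5 and 96.3 FPKM (0.86). Radial glia markers had a median of 0.20, with 4 of 30 higher and 2 lower. Ednrb (1.49), Ddah1 (0.68), the receptor phosphatase Ptprz1 (0.65) and the intermediate filament Vim (0.60) were higher, and Dbi (13.6 and 5.10 FPKM, -1.19) and Sox1 (17.3 and 6.64 FPKM, -0.78) lower. Notch genes had a median of -0.09, and the ligands Dll1 (10.5 and 5.24 FPKM, -0.85) and Dll3 (10.3 and 4.44 FPKM, -0.74) were among the 4 of 23 that were lower.

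Targets of p53 and apoptosis genes had a median of -0.32, with 9 of 28 lower by 1.5-fold and 3 higher. Bax, which permeabilises the outer mitochondrial membrane, was at 58.2 FPKM in N-SFMA and 15.8 in NL-SFMA, beside 82.0 in SFMA and 60.7 in L-SFMA, 3.68-fold lower by CPM in NL-SFMA than in N-SFMA (3.32 to 4.09). Bbc3, the pro-apoptotic PUMA gene, was at 15.0, 3.88, 28.0 and 24.4 FPKM in the same order (-1.39). Mdm4, an inhibitor of p53, was higher, at 8.58, 18.4, 7.05 and 13.8 FPKM (1.34). Cell cycle genes had a median of 0.05, with 4 of 39 higher and 2 lower. Birc5, survivin of the mitotic spindle, was at 8.51 and 1.83 FPKM in N-SFMA and NL-SFMA (-1.44), whereas the cyclins Ccne2 (4.33 and 7.81 FPKM, 0.77) and Ccna2 (13.5 and 20.6 FPKM, 0.67) were higher.

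The signalling lists that follow had medians near 0. Their counts stand beside the 11.9% of all genes that were higher by 1.5-fold and the 11.8% that were lower. Cell surface receptors were among their higher members. The receptor Fgfr1 of the FGF-ERK list was at -0.39, not past 1.5-fold, and Notch4 of the Notch list was lower (-0.86). In the Id and BMP list (median 0.12, 2 of 14 higher by 1.5-fold, 1 lower) the BMP receptors Bmpr2 (6.08 and 18.0 FPKM, 1.09) and Bmpr1a (20.2 and 41.2 FPKM, 1.05) were past 2-fold, and the target Id3 was lower (76.0 and 33.2 FPKM, -0.66). In the Wnt list (median -0.02, 2 of 23 higher, 1 lower) the receptor Fzd3, known from axon guidance, was at 12.2 FPKM in N-SFMA and 31.2 in NL-SFMA, beside 9.80 in SFMA and 16.2 in L-SFMA (1.37), and the kinase Gsk3b at 32.3 and 53.1 FPKM (0.88). In the list of neurotrophic factors (median 0.13, 2 of 18 higher, 1 lower) the growth factor midkine, Mdk, was at 357, 97.7, 837 and 416 FPKM in the same order (-1.35), and the receptors Erbb4 (2.00 and 4.32 FPKM, 0.66) and Lifr (1.03) were higher. Lifr rested on 30 and 104 reads. Further lists also had calls near or below the shares of all genes. FGF-ERK feedback genes had a median of 0.08, with 1 of 12 higher, Spred1 at 4.09 and 11.0 FPKM. YAP and SRF targets had a median of 0.11 (3 of 30 higher, 1 lower). Integrins and focal adhesion had 0.03 (1 of 21 higher, 1 lower) and extracellular matrix -0.08 (4 of 31 higher, 2 lower). Among matrix genes the proteoglycans Sdc2 (3.91 and 8.41 FPKM, 0.89) and Vcan (5.47 and 14.1 FPKM, 0.70) were higher and the glypican Gpc2 lower (113 and 61.2 FPKM, -0.72).

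Metabolic and redox lists had medians below 0. The counts in this paragraph stand beside the 11.8% of all genes that were lower by 1.5-fold and the 11.9% that were higher. Hypoxia and glycolysis genes had a median of -0.23, with 6 of 27 lower by 1.5-fold and 2 higher, led by the phosphofructokinases Pfkl (52.6 and 23.9 FPKM, -0.98) and Pfkm (54.2 and 30.6 FPKM, -0.86) and the pyruvate kinase Pkm (199 and 105 FPKM, -0.95). Oxidative stress genes had a median of -0.20, with 8 of 34 lower and 3 higher. Park7, the DJ-1 redox sensor, was at 105 and 37.6 FPKM (-1.17), the peroxiredoxin Prdx5 at 45.5 and 20.5 FPKM (-1.13) and the ferritin light chain Ftl1 at 641 and 264 FPKM (-1.07), while Gclm of glutathione synthesis was at 13.6 and 21.7 FPKM (1.05). Cholesterol synthesis had a median of -0.11, with 5 of 32 lower, near the share of all genes, and 2 higher. Of its members Pmvk was at 34.5 and 9.65 FPKM (-1.26) and Fdps at 119 and 69.7 FPKM (-1.08). The unfolded protein and integrated stress response list had a median of 0.18, with 5 of 27 higher and 3 lower, heat shock genes 0.00 with 1 of 23 either way, and proteasome genes -0.19 with 3 of 32 higher and 2 lower. Immediate early genes had a median of -0.26 over 17 tested, with 3 lower and 1 higher, Ier2 at 8.30 and 3.31 FPKM (-1.30) and Ccn2 at 1.27 and 3.30 FPKM (1.05).

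For lists of very long genes the trend decided the count. Chromatin remodellers and histone methylases, with a median model of 8817 bases, had 16 of 37 members at least 1.5-fold higher before removal and 2 of 37 after, with medians of 0.51 and 0.06. Ubiquitin ligases and deubiquitinases, with a median model of 8261 bases, had 20 of 31 higher before and 6 after, 1 lower after, with medians of 0.68 and 0.28. Ube3a, the ligase lost in Angelman syndrome, was at 9.79 FPKM in N-SFMA and 25.5 in NL-SFMA, beside 5.81 in SFMA and 11.7 in L-SFMA, a difference of 0.95 with the trend removed. Usp34 was at 9.31, 24.9, 4.55 and 12.6 FPKM in the same order (0.83). The ubiquitin gene Ubb was at -0.64.

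**Figure D4:**
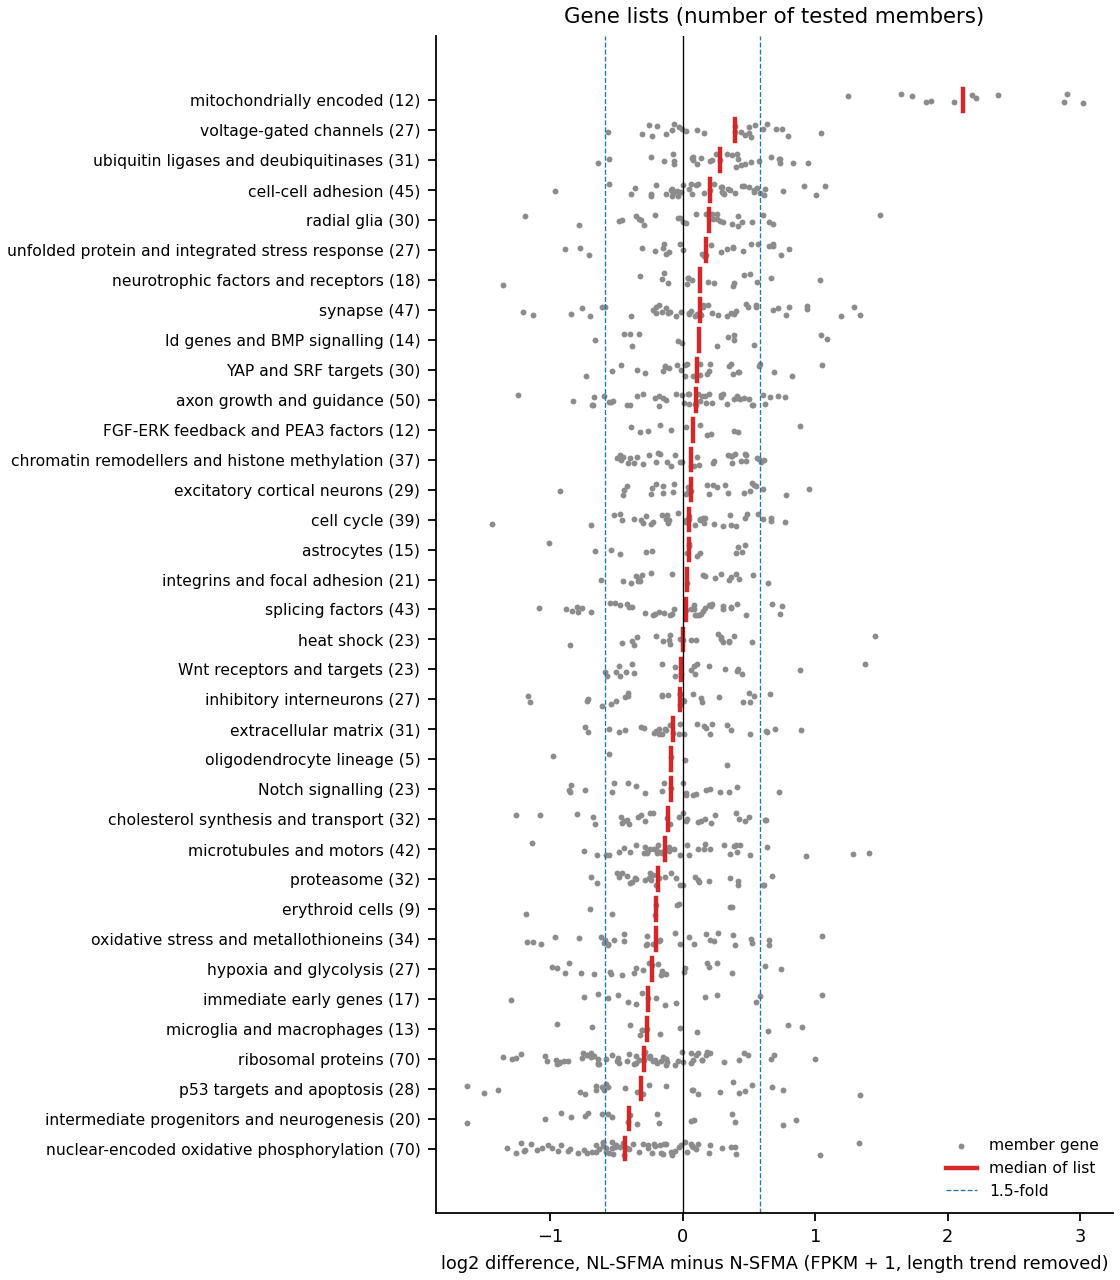
Trend-removed log2 differences, NL-SFMA minus N-SFMA, of the tested members of gene lists with at least 5 tested members, ordered by median. Grey points are genes, spread vertically at random for legibility, red bars are list medians and dashed lines mark 1.5-fold; the mitochondrially encoded list has its median at 2.11 and the other plotted lists lie between -0.43 and 0.39. Symbol families added after values were seen, and subsets of lists, are not plotted.

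Summed levels of the markers of other cell types, given here without removal of the length trend, were lower in NL-SFMA than in N-SFMA for the 6 lists that follow. Of 24 found microglia and macrophage markers 13 were tested, 2 lower and 3 higher by 1.5-fold, and their summed level over all found markers was 52.7 FPKM in N-SFMA and 36.3 in NL-SFMA. The complement genes C1qa, C1qb and C1qc and the marker Aif1 were below the limit of 1 FPKM in both. Ccl3, a chemokine, was at 9.11 and 2.71 FPKM (-0.95). Erythroid markers, 9 of 16 tested, summed to 250 FPKM in N-SFMA and 129 in NL-SFMA, with Hba-a1 at 147 and 59.6 FPKM (-1.18), and to 658 in SFMA and 167 in L-SFMA. The alpha globin copies are so alike that reads can be split between them. Astrocyte markers, 15 of 19 tested, summed to 248 and 169 FPKM with a median of 0.05, and Apoe was at 8.43 and 2.86 FPKM (-1.01). Oligodendrocyte lineage markers, 5 of 13 tested, summed to 38.9 and 25.5 FPKM. Endothelial markers, 1 of 18 tested, summed to 18.2 and 14.2 FPKM, of which Slc2a1, a glucose transporter not limited to vessels, made up 15.6 and 11.2 FPKM. Meningeal markers, 3 of 18 tested, summed to 12.8 and 11.9 FPKM. The part of these markers in the other differences was not tested.

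L-SFMA against SFMA gives the values that accompany L where N is absent, from the other pair of libraries, so that no library is shared. There 288 of 12143 tested genes were at least 2-fold higher with the trend removed (2.37%) and 152 lower (1.25%). Of the genes 2-fold higher with N present, 80 were also 2-fold higher with N absent, 22.8% of the 351 and 27.8% of the 288. Of those lower, 19 were shared, 6.69% of the 284 and 12.5% of the 152, while 5 genes lower with N present were 2-fold higher with N absent. Across 11693 genes tested in both, the differences had a Pearson r of 0.36, again a description across genes.

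The mitochondrially encoded genes had a median of 2.11 with N present and 0.27 with N absent. Mt-nd3 had 2.18 and -0.65 and Mt-nd5 2.88 and 0.88. GABA-A receptor subunits had medians of 1.09 and 0.30, prefoldin -0.83 and -0.34, and Ragulator -0.73 and -0.26. Intermediate progenitor genes had -0.40 and 0.10, and radial glia genes 0.20 and -0.38. Cell cycle genes had 0.05 and -0.57, with 19 of 39 members lower by 1.5-fold where N was absent (7.26% of all genes there), and erythroid genes -0.20 and -1.09. Nuclear oxidative phosphorylation genes had medians of -0.43 and -0.38, with 24 and 16 members lower by 1.5-fold. Cell-cell adhesion genes had medians of 0.21 and 0.25, with 6 and 11 members higher and 1 and 0 lower. Ribosomal protein genes had -0.29 and -0.58. With 1 library per hydrogel the difference between these pairs could not be tested.

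**Figure D5:**
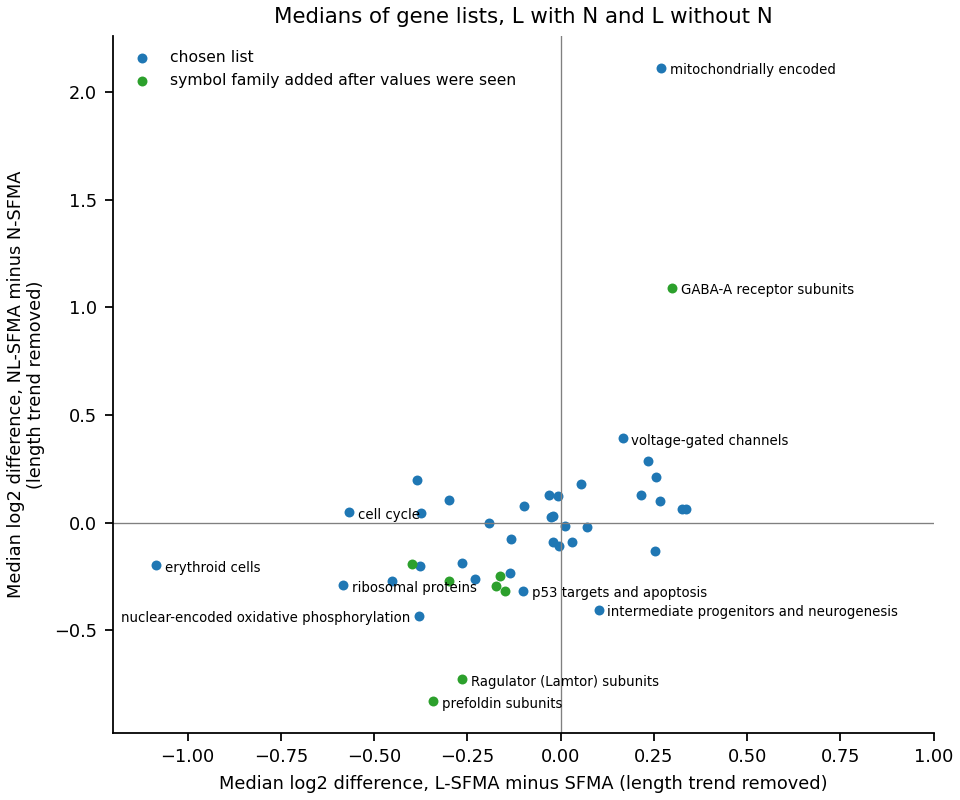
Median trend-removed log2 difference of gene lists with at least 5 tested members, NL-SFMA minus N-SFMA on the vertical axis and L-SFMA minus SFMA on the horizontal axis; blue points are chosen lists and green points symbol families added after values were seen. The mitochondrially encoded list lies at 2.11 on the vertical axis and 0.27 on the horizontal, apart from the rest.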

How the data were processed

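RNA of rat cortical cells on 4 hydrogels was measured by poly(A) RNA sequencing, from 1.5 µg of RNA, with NEBNext Ultra libraries on a NovaSeq instrument, per the labels' protocols. The authors deposited, for each library, whole-number read counts and FPKM for 18755 genes. The deposited count columns were used as given. The submitters' processing notes name HISAT2, with no version, and HTSeq 0.13.5, and the builds GRCh38 and mRatBN7.2 with no role; the settings of alignment, strand and filtering are not stated there. The deposited FPKM equals the count over gene model length and summed count, checked by recovering whole-number lengths to within 1e-06 bases.

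From these, log2((FPKM + 1) in NL-SFMA / (FPKM + 1) in N-SFMA) was taken for genes with FPKM of at least 1 in either library, and a lowess trend (span 0.3, statsmodels 0.14.6, Python 3.11.15) on log2 length was subtracted. With 1 library per hydrogel no test was run. Calls are by size, 2-fold for genes and 1.5-fold for list members. Single-gene folds are CPM ratios with exact Clopper-Pearson 95% intervals conditional on both counts (scipy 1.17.1). Alternatives were other pseudocounts, filters, trend fits and the scalings of edgeR 4.0.16 (TMM) and DESeq2 1.42.0 (median of ratios). The scripts were tested on simulated data.

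The members and the 38 lists were chosen with earlier results of these data known. Named genes were the 12 largest differences each way among genes with an assigned symbol and FPKM of at least 5, up to 4 members per list with the largest difference, for which the limit was 1 FPKM, and 8 genes fixed for adhesion (Cdh2, Ctnnb1, L1cam and Ncam1) and neuronal growth (Dcx, Gap43, Map2 and Tubb3). Clone names such as AC136661.1 passed as assigned symbols. Other names, the 12 largest higher genes without a mitochondrial symbol, the symbol families and subsets by complex or subunit were added after values were seen. Of 1240 list symbols 1199 were found; a symbol on several rows took the row with most reads. Promoters came from RefSeq, build GRCr8, matched by symbol. Some genes that the rules name are not reported here.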

Additional observations from a re-analysis of the deposited data

Results flagged for a closer look

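In 8 genes reported here the trend-removed log2 difference that accompanies L went in opposite directions with N present (NL-SFMA minus N-SFMA) and with N absent (L-SFMA minus SFMA), past 1.5-fold in both. The difference between the pairs was not tested, since each hydrogel has 1 library. The mitochondrial complex I subunit Mt-nd3 was at 2.18 with N and -0.65 without. AC136661.1, which has no descriptive symbol, was at 2.03 and -0.66. Thbs1, the matrix protein thrombospondin 1, was at 0.69 and -0.60. Ddah1, an enzyme listed with radial glia, was at 0.68 and -0.81. Vim, the intermediate filament vimentin of radial glia, was at 0.60 and -0.91. Cox7b, a nuclear-encoded subunit of complex IV, was at 1.03 and -0.82. The neuropeptide gene Npy was at -1.15 and 0.68, from 110 reads in N-SFMA and 27 in NL-SFMA. The lipid carrier Apoe was at -1.01 and 0.59.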

How the results depend on the processing

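Under 11 alternatives to the pseudocount, filter, trend fit and scaling, no called value changed direction. Of the 88 named genes past 2-fold, 48 stayed past it under each alternative. A pseudocount of 0.1 FPKM gave 632 genes 2-fold higher and 524 lower, and one of 5 gave 57 and 143, with 584 and 808 past 1.5-fold and a Ragulator median of -0.58. A filter of 5 FPKM gave a histone median of -0.59. With no filter 448 genes were 2-fold lower and the oxidative phosphorylation median was -0.66. Without trend removal 692 genes were 2-fold lower beside 267 higher and 2208 were 1.5-fold lower; the medians were -0.65 for ribosomal proteins, -0.80 for oxidative phosphorylation, 0.68 for ubiquitin ligases, -0.64 for mitochondrial import, -0.60 for mitochondrial ribosomal proteins and -0.66 for histones. The TMM scaling, also without trend removal, gave 627 genes 2-fold lower and -0.62, -0.77, 0.72, -0.61 and -0.62 for ribosomal proteins, oxidative phosphorylation, ubiquitin ligases, import and histones, and the median of ratios gave 638 and -0.62, -0.77, 0.71, -0.62 and -0.63. The cause of these shifts was not tested.

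No paired analysis was possible because each hydrogel has 1 library, which also leaves no replicate to omit. Low genes are limited by depth: a gene with 21 to 51 reads has a wide counting interval, and nothing here measures variation between cultures.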
